A study of Homo sapiens with 9 samples.

Results

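The mRNAs of 8 genes for structure-specific DNA nucleases, EME1, EME2, MUS81, SLX4, GEN1, ERCC1, ERCC4 and FAN1, were followed in H1299 cells after depletion of FIBP. The genes were taken by symbol from the transcript tables, where they made up 8 of 60966 genes and 104 of 244443 transcripts. H1299 cells are a line grown from a human non-small cell lung carcinoma, and 3 samples each were transfected with a scrambled siRNA (Scramble) or with 1 of 2 siRNAs against FIBP (Si-FIBP#1 and Si-FIBP#2). The siRNAs were used at 100 nM for 48 h, and the labels name no other genetic change. The design names 3 independent samples a group, and the study's methods say of experiments in general that they were repeated independently. Neither says of these libraries whether they came from separate cultures, so the p-values below measure the spread between these samples, which may be technical. Values are FPKM (fragments per kilobase of transcript, scaled to the mapped fragments of the library), which allow levels to be compared between genes, and a gene value is the sum over its transcripts.

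Structure-specific nucleases cut branched DNA, such as a stalled replication fork or the crossed strands left by homologous recombination, where a plain double helix would be left alone. MUS81 is the catalytic subunit of a dimer whose other subunit is EME1 or EME2, and SLX4 is a scaffold that holds MUS81-EME1, SLX1 and ERCC4-ERCC1 together. GEN1 resolves Holliday junctions by itself, ERCC4 (also called XPF) cuts damaged DNA together with ERCC1 in nucleotide excision repair and in the repair of crosslinks, and FAN1 cuts at crosslinks and at forks. In dividing cells the activity of MUS81-EME1 rises towards mitosis, when CDK1 and PLK1 phosphorylate the complex.

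FIBP itself fell with each siRNA. It was at 88.38, 79.49 and 77.74 FPKM in Scramble, at 7.49, 7.77 and 4.3 FPKM under Si-FIBP#1 and at 7.13, 5.92 and 8.21 FPKM under Si-FIBP#2. The depth of the libraries, estimated from the steps between low values, was such that 1 FPKM was worth 19.45 to 23.25 fragments per kilobase, or about 42.8 fragments on the main EME1 transcript. Of the epithelial and mesenchymal genes that mark the line, KRT8 (67.15 to 108.14 FPKM), KRT18 and VIM were expressed, while CDH1 was listed at 0 in every sample. These markers moved with depletion. KRT18 went from a mean of 476 FPKM to 208.7 and 174.8 FPKM and was called lower with each siRNA (limma, adjusted p = 2.01e-05 and 6.88e-06), KRT8 and VIM passed the FDR as lower and CDH2 as higher with each, and the part of this in the results was not tested. Of 12 markers of blood, endothelial and stromal cells, 9 stayed under 1 FPKM everywhere, whereas the lysosomal gene CD68 reached 66.96 FPKM and COL1A1 and DCN exceeded 1 FPKM in some depleted samples. The summed level of these markers, nearly all of it CD68, was 32.16 to 33.69 FPKM in Scramble, 39.44 to 42.32 FPKM under Si-FIBP#1 and 52.18 to 68.9 FPKM under Si-FIBP#2, with 2 markers at 0 throughout, and its part in the results was not tested.

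In the Scramble samples the levels of the 8 genes covered a wide range. ERCC1 was by far the most abundant, at 164.35 to 168.33 FPKM, while its partner ERCC4 was at 2.79 to 3.11 FPKM. EME1 (22.23 to 26.87 FPKM) and MUS81 (18.12 to 21.96 FPKM) followed ERCC1, and their ranges came close without overlapping. FAN1 lay at 11.68 to 13.52 FPKM and GEN1 at 7.37 to 8.98 FPKM. SLX4 (3.59 to 4.06 FPKM) and ERCC4 did not overlap with each other, but EME2 (2.59 to 4.68 FPKM) overlapped with both.

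The results below turn on EME1 and GEN1, which fell most, and on MUS81, the partner of EME1. The sequences just before the transcription starts of these genes are shown to allow their comparison. They were taken from RefSeq (GRCh38.p14) on the coding strand and end at the base before the start. In the GEN1 and MUS81 sequences the capitals mark motifs.
EME1, chr17:50372979-50373228, plus strand: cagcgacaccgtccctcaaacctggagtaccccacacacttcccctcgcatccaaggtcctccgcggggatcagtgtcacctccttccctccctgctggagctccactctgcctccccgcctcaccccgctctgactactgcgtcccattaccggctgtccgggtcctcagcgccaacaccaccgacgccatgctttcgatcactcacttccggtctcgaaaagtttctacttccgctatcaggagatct
GEN1, chr2:17753888-17754137, plus strand: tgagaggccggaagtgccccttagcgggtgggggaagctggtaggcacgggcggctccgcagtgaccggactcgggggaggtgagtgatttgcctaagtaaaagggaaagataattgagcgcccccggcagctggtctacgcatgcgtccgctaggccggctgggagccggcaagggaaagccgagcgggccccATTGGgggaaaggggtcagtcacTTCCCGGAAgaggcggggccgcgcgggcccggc
MUS81, chr11:65860183-65860432, plus strand: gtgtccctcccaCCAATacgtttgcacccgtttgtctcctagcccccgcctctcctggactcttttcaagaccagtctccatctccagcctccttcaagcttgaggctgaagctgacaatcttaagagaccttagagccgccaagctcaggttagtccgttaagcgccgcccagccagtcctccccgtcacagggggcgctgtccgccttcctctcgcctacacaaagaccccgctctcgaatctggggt
Windows of 250 bases before to 50 bases after a start were searched on both strands for TTCNNNGAA (the palindrome bound by STAT proteins), TTTCGCGC or TTTGGCGC (E2F), TTTGAA (CHR, an element of cell cycle genes) and CCAAT. The 8 genes have 12 such windows. The EME1 window contained none of these letters in a row, which says nothing about binding there or elsewhere. By chromatin immunoprecipitation the study reports STAT3 at the EME1 promoter, with less binding after FIBP silencing. The GEN1 window shown contained TTCCCGGAA from base -33 relative to the start and CCAAT on the other strand, written ATTGG, from base -56. The other GEN1 window contained TTTCGCGC from base 252 of the window, just inside its transcript. The MUS81 window contained CCAAT from base -238. Of 35116 promoter windows, 7.66% contained the STAT motif, 1.15% an E2F motif, 15.2% TTTGAA and 34.6% CCAAT. Among the 12 windows of the 8 genes these were 1, 1, 2 and 3.

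Compared with Scramble, 5 of the 8 genes were lower and 1 was higher with Si-FIBP#1 at a false discovery rate (FDR) below 0.05 (limma on log2(FPKM + 1), adjusted by the Benjamini-Hochberg method over all 14985 genes tested). Over all genes, 19.9% passed as lower and 27.8% as higher. With Si-FIBP#2, 4 of the 8 were lower and 1 was higher, against 17.7% and 31.1% of all genes. With the 6 FIBP-depleted samples together, 5 were lower and 2 higher, against 20.3% and 32.6%. At the stricter rule of FDR below 0.05 and a change over 2-fold, called differentially expressed below, EME1 and GEN1 were lower with Si-FIBP#1 (3.11% of all genes), EME1 was lower with Si-FIBP#2 (2.13%), and EME1 and GEN1 were lower with both together (2.45%). No gene of the 8 was called higher. The 8 genes had median log2 fold changes of -0.36 and -0.25 under the 2 siRNAs, beside 0.073 and 0.11 for all genes. The comparisons of the siRNAs share their Scramble samples and are therefore not independent.

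**Figure D1:**
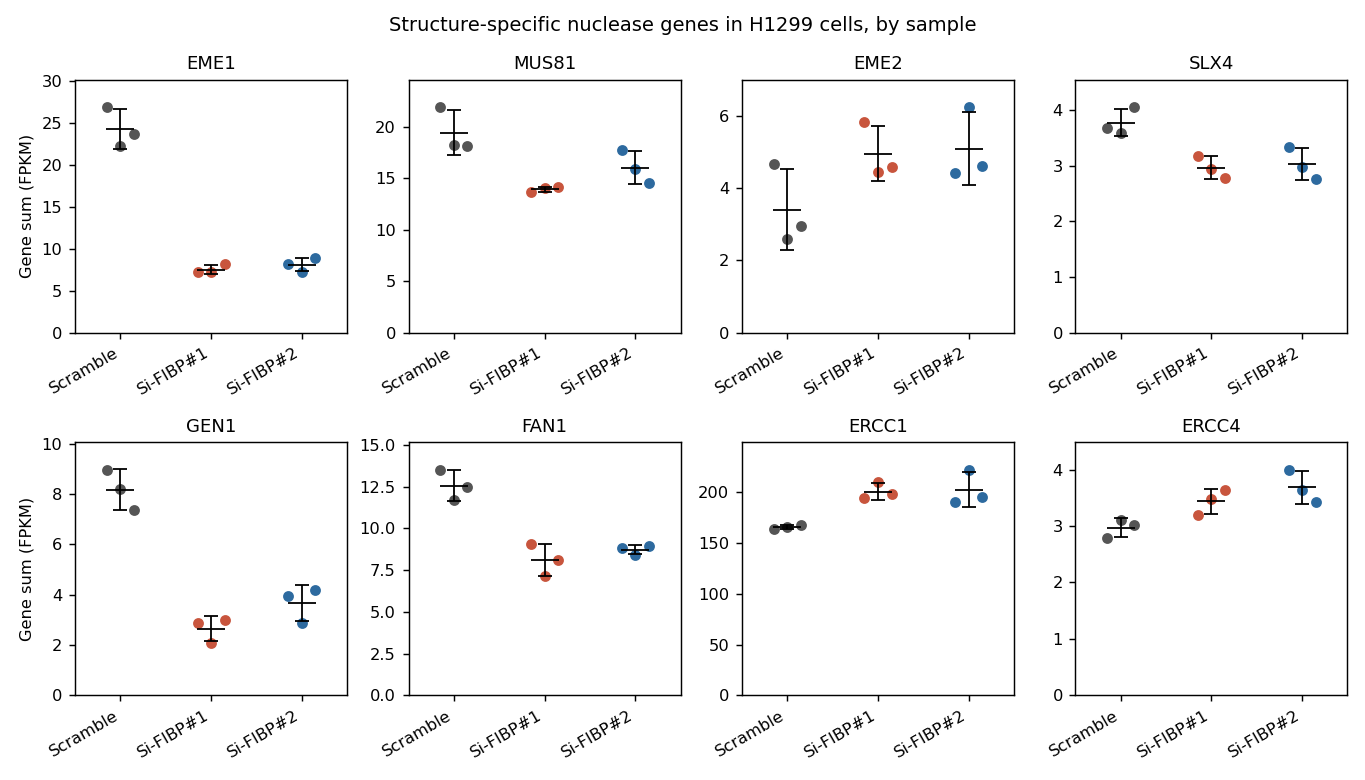
Gene sums in FPKM (vertical axes, each from 0) of the 8 nuclease genes in the 3 Scramble, 3 Si-FIBP#1 and 3 Si-FIBP#2 samples; each point is a sample, the long line the mean and the error bar the SD. EME1, GEN1, FAN1, MUS81 and SLX4 are lower in all 6 FIBP-depleted samples than in any Scramble sample, ERCC1 and ERCC4 are higher in all 6, and EME2 overlaps.

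For 5 genes, EME1, GEN1, FAN1, MUS81 and SLX4, each of the 6 depleted samples lay under the lowest Scramble sample, as was the case for 16.5% of all genes tested. For ERCC1 and ERCC4 all 6 were above, as for 26.3% of all genes.

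EME1, the regulatory subunit that pairs with MUS81, had the lowest share of its Scramble mean left, 30.9% and 33.4% with the 2 siRNAs. It was at 26.87, 22.23 and 23.62 FPKM in Scramble, at 7.18, 7.17 and 8.12 FPKM under Si-FIBP#1 and at 8.14, 7.26 and 8.89 FPKM under Si-FIBP#2. The highest FIBP-depleted sample was thus far below the lowest Scramble sample, and the log2 fold changes were -1.57 and -1.47 (limma, adjusted p = 2.22e-06 and 3.72e-06). The siRNAs differed by 0.098 (95% interval -0.12 to 0.31, limma, adjusted p = 0.55). After depletion EME1 was in the range of FAN1 (7.13 to 9.06 FPKM), which it had clearly exceeded in Scramble.
All 4 EME1 transcripts that could be tested were lower with Si-FIBP#1, and 3 of them with Si-FIBP#2. The main one, ENST00000338165 (2330 nt, protein coding), was at 15.21, 12.06 and 13.8 FPKM in Scramble, at 4.27, 4.42 and 4.04 FPKM under Si-FIBP#1 and at 4.62, 4.0 and 4.52 FPKM under Si-FIBP#2. It was called lower with each siRNA, by -1.48 and -1.45 on the log2 scale (limma over 47662 transcripts, adjusted p = 5.96e-05 and 7.41e-05). It made up 56.4%, 57.0% and 54.2% of EME1 in the 3 groups. Transcripts with a retained intron made up 34.1 ± 1.45% of EME1 (SD, n = 3) in Scramble and 36.0 ± 5.48% and 38.9 ± 4.87% after depletion. Among them, ENST00000507616 was at 2.13 to 3.73 FPKM in Scramble and at 1.07 to 1.74 FPKM in the depleted samples, ENST00000514211 at 2.36 to 3.14 and 0.55 to 1.31 FPKM, and ENST00000510007 at 1.42 to 2.65 and 0.19 to 1.04 FPKM. All 3 passed the FDR with Si-FIBP#1, and the first 2 also with Si-FIBP#2. The last, ENST00000510007, met the filter of 1 FPKM in 3 samples only through Scramble, so its result is no separate support for a fall. Of the 10 EME1 transcripts, 4 were tested, 5 stayed below the filter and 1 was at 0 throughout.

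MUS81, the catalytic subunit, kept 71.8% and 82.7% of its Scramble mean. It was at 21.96, 18.21 and 18.12 FPKM in Scramble, at 13.66, 14.06 and 14.12 FPKM under Si-FIBP#1 and at 17.74, 15.92 and 14.51 FPKM under Si-FIBP#2. The samples did not overlap, although Si-FIBP#2 replicate 1 came close to the lowest Scramble sample. The changes were -0.45 and -0.26 on the log2 scale for the 2 siRNAs (limma, adjusted p = 0.00322 and 0.0415). The latter did not pass, with adjusted p = 0.0539 to 0.142, when Scramble replicate 1, any Si-FIBP#1 sample or Si-FIBP#2 replicate 2 or 3 was left out, and the value was -0.17 without Scramble replicate 1. The call was also lost without a filter, with only the groups compared and with protein-coding transcripts alone (limma, adjusted p = 0.0859, 0.0752 and 0.057). The main transcript, ENST00000308110 (2364 nt, protein coding), was at 7.55 to 9.15 FPKM in Scramble, at 5.33 to 6.09 FPKM under Si-FIBP#1 and at 5.66 to 6.9 FPKM under Si-FIBP#2, and it passed the FDR with Si-FIBP#1 (log2 fold change -0.47, limma, adjusted p = 0.0192). A short transcript with a retained intron, ENST00000533519, was at 2.02 to 3.24 FPKM in Scramble, at 0.53 to 0.69 FPKM under Si-FIBP#1 and at 0.88 to 4.09 FPKM under Si-FIBP#2. It was called lower with Si-FIBP#1 (log2 fold change -1.21, limma, adjusted p = 0.0301), but the difference between the siRNAs did not pass (limma, adjusted p = 0.21). ENST00000533519 met the filter of 1 FPKM in 3 samples only through Scramble, so its call is no separate support for a fall. MUS81 and FIBP both lie on chromosome 11, with 16087 bases between them.

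EME2, the alternative partner of MUS81, did not fall. It was at 4.68, 2.59 and 2.95 FPKM in Scramble, at 5.83, 4.44 and 4.6 FPKM under Si-FIBP#1 and at 4.43, 6.26 and 4.62 FPKM under Si-FIBP#2. Scramble replicate 1 lay within the range of the depleted samples, and the other two Scramble samples lay below it. Neither difference, 0.46 and 0.49 on the log2 scale, passed (limma, adjusted p = 0.0676 and 0.053), whereas for both siRNAs together the gene was higher by 0.47 (limma, adjusted p = 0.0318). This last call was lost without Scramble replicate 2 or 3, Si-FIBP#1 replicate 1 or Si-FIBP#2 replicate 2 (limma, adjusted p = 0.0556 to 0.142), as well as without a filter, with median ratio scaling or without assembled transcripts (limma, adjusted p = 0.0899, 0.0566 and 0.0802), and leaving out Scramble replicate 1 made each siRNA pass (limma, adjusted p = 0.00988 and 0.00779). Most of the EME2 signal did not come from its protein-coding transcript. That transcript, ENST00000568449, was at 0.65 to 1.08 FPKM in Scramble and 0.69 to 1.01 FPKM in the depleted samples, or 23.7% of EME2 in Scramble and 15.3% and 17.8% after depletion. ENST00000561903, annotated as a target of nonsense-mediated decay, was at 2.04, 1.44 and 1.92 FPKM in Scramble, at 2.39, 2.33 and 2.26 FPKM under Si-FIBP#1 and at 2.85, 2.33 and 2.48 FPKM under Si-FIBP#2. It was above Scramble in all 6 depleted samples, as were 13.2% of all transcripts tested, but did not pass (limma, adjusted p = 0.21 and 0.102).

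The ratios of MUS81 and its partners were apart between Scramble and the depleted samples. The ratio of EME1 to MUS81 lay between 1.22 and 1.30 in Scramble, between 0.51 and 0.575 under Si-FIBP#1 and between 0.456 and 0.613 under Si-FIBP#2. The ratio of EME1 to EME2 was 5.74 to 8.58, 1.23 to 1.77 and 1.16 to 1.92. The ratio of EME2 to MUS81 was 0.142 to 0.213 in Scramble and 0.25 to 0.427 in the depleted samples. None of these ranges overlapped with Scramble. For single genes, 16.5% lay below and 26.3% above Scramble in all 6 depleted samples. Such a share was not computed for ratios, so how common such gaps are among ratios is not known. The coding transcript of EME2 had means of 0.8, 0.747 and 0.9 FPKM in Scramble, Si-FIBP#1 and Si-FIBP#2. The ratios with EME2 thus describe summed RNA and show no change of its coding mRNA. The ratios are built from the gene sums tested above and were not tested again.

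**Figure D2:**
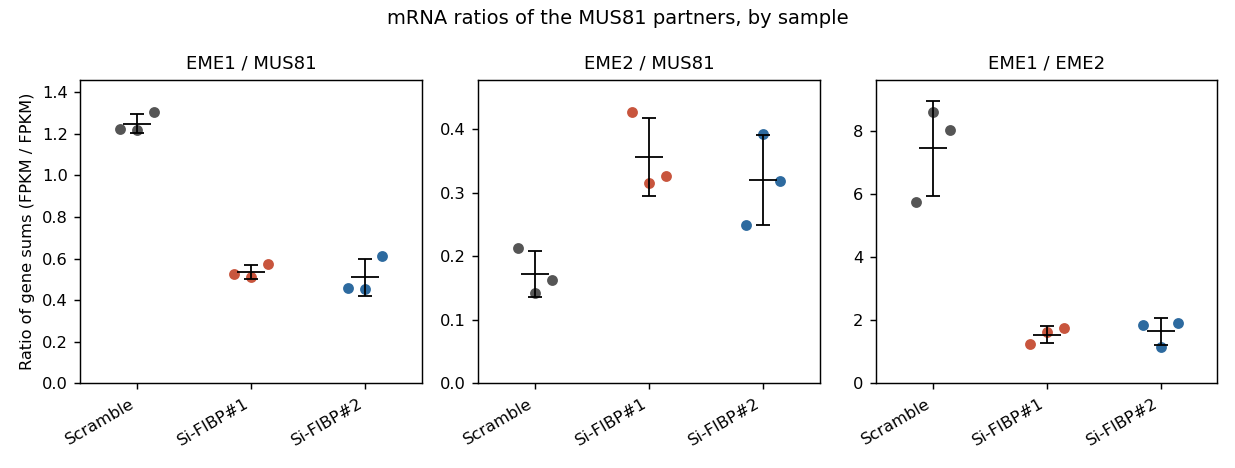
Ratios of gene sums (FPKM over FPKM, vertical axes from 0) of EME1 to MUS81, EME2 to MUS81 and EME1 to EME2 in each sample, with the mean (long line) and the SD (error bar) of the 3 samples of a group. The ratio of EME1 to MUS81 is at 1.22 to 1.30 in Scramble and at most 0.613 after depletion.

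SLX4, the scaffold, was low and fell slightly. It was at 3.68, 3.59 and 4.06 FPKM in Scramble, at 3.18, 2.94 and 2.78 FPKM under Si-FIBP#1 and at 3.33, 2.98 and 2.76 FPKM under Si-FIBP#2. All depleted samples were lower than Scramble, by log2 fold changes of -0.27 and -0.25, of which the first passed (limma, adjusted p = 0.0466 and 0.0599). The call with Si-FIBP#1 was lost when any sample other than Si-FIBP#2 replicate 1 or 2 was left out (limma, adjusted p = 0.0527 to 0.145) and without a filter, without assembled transcripts or with protein-coding transcripts alone (limma, adjusted p = 0.101, 0.0629 and 0.0533), while that with Si-FIBP#2 passed without Si-FIBP#2 replicate 1 (limma, adjusted p = 0.0481) and with median ratio scaling (limma, adjusted p = 0.0182). For both siRNAs together the value was -0.26 (limma, adjusted p = 0.0275), a call lost without a filter, any Scramble sample, Si-FIBP#1 replicate 2 or 3 or Si-FIBP#2 replicate 3 (limma, adjusted p = 0.0503 to 0.114). Nearly all of SLX4, 87.8% in Scramble, came from its protein-coding transcript ENST00000294008 (7315 nt). The nuclease SLX1, which SLX4 activates, is encoded by the near-identical copies SLX1A and SLX1B, whose separate values are uncertain. Their sum was at 39.84 to 43.37 FPKM in Scramble, at 16.95 to 21.23 FPKM under Si-FIBP#1 and at 25.22 to 30.78 FPKM under Si-FIBP#2. SLX1A alone passed the FDR with each siRNA (log2 fold changes -0.88 and -0.59, limma, adjusted p = 0.0011 and 0.00999), and SLX1B with Si-FIBP#1 (-1.80 and -0.85, limma, adjusted p = 0.0184 and 0.209). SLX4IP, which binds SLX4, was at 1.98 to 2.3 FPKM in all 9 samples, with log2 fold changes of 0.005 and -0.041 (95% intervals -0.22 to 0.23 and -0.27 to 0.18).

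GEN1, which resolves Holliday junctions independently of SLX4, was the other gene that fell strongly. It was at 8.98, 8.2 and 7.37 FPKM in Scramble, at 2.89, 2.07 and 2.99 FPKM under Si-FIBP#1 and at 3.94, 2.88 and 4.2 FPKM under Si-FIBP#2. Both siRNA groups lay far below Scramble, with means of 32.4% and 44.9% of it, and overlapped with each other. GEN1 was called with Si-FIBP#1, with a value of -1.34 on the log2(FPKM + 1) scale (limma, adjusted p = 6.75e-05). The value of -0.98 with Si-FIBP#2 passed the FDR (limma, adjusted p = 0.000439) and fell just short of 2-fold on that scale, though not in the means. It exceeded 2-fold without Scramble replicate 3 (-1.05), Si-FIBP#2 replicate 1 (-1.03) or Si-FIBP#2 replicate 3 (-1.07). Between the siRNAs the difference of 0.36 did not pass (95% interval 0.031 to 0.68, limma, adjusted p = 0.133).
GEN1 was spread over several transcripts. The protein-coding ENST00000381254 (9957 nt) was at 2.13, 2.32 and 3.23 FPKM in Scramble, at 1.14, 0.52 and 0.92 FPKM under Si-FIBP#1 and at 0.99, 0.5 and 1.33 FPKM under Si-FIBP#2. It fell with both (log2 fold changes -0.94 and -0.89, limma, adjusted p = 0.0185 and 0.0245). Too few depleted samples reached 1 FPKM for it to be tested without Scramble, so these p-values are no separate support for a fall. The noncoding ENST00000528873 (871 nt) was at 2.0 to 2.82 FPKM in Scramble and at 0.17 to 0.86 FPKM in the depleted samples, and was called with both siRNAs (log2 fold changes -1.23 and -1.05, limma, adjusted p = 0.00665 and 0.0141). It reached the filter of 1 FPKM in Scramble alone and was tested only for that reason, so its call is no separate support for a fall. A 12636 nt transcript assembled by the authors was at 1.51 to 1.98 FPKM and at 0.49 to 1.03 FPKM, and likewise met the filter only through Scramble. The second long coding transcript, ENST00000317402, varied from 0.48 to 1.75 FPKM within Scramble and overlapped with the depleted samples. With the protein-coding transcripts of GENCODE release 29 alone, the log2 fold changes of GEN1 were smaller, -1.05 and -0.70.

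FAN1 fell moderately with both siRNAs. It was at 13.52, 11.68 and 12.47 FPKM in Scramble, at 9.06, 7.13 and 8.09 FPKM under Si-FIBP#1 and at 8.8, 8.42 and 8.95 FPKM under Si-FIBP#2. Neither siRNA overlapped with Scramble, while the siRNAs overlapped with each other, and the log2 fold changes were -0.58 and -0.48 (limma, adjusted p = 0.000669 and 0.00201), which left 64.5% and 69.5% of the Scramble mean. The signal was divided among 28 transcripts, of which 26 were above 0 in some sample and 3 were tested. Those absent from GENCODE release 29 made up 64.4 ± 0.185%, 63.3 ± 3.45% and 63.1 ± 6.93% (SD, n = 3) of FAN1 in Scramble and with the 2 siRNAs. Of the 3 tested, ENST00000656435 passed with Si-FIBP#2 (log2 fold change -0.63, limma, adjusted p = 0.0313), at 1.16 to 1.63 FPKM in Scramble and 0.49 to 0.85 FPKM in the depleted samples. This transcript too reached the filter of 1 FPKM in Scramble alone, so its call is no separate support for a fall.

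ERCC1, the noncatalytic partner of ERCC4, passed the FDR as higher with each siRNA, which EME2 and ERCC4, with values above 0 as well, did not. Differences between these 3 genes were not tested. It was at 164.35, 165.99 and 168.33 FPKM in Scramble, at 193.97, 210.11 and 198.19 FPKM under Si-FIBP#1 and at 190.22, 222.53 and 195.44 FPKM under Si-FIBP#2. The depleted samples were all higher, by 0.27 and 0.28 on the log2 scale (limma, adjusted p = 0.00518 and 0.00405). ERCC4, the catalytic subunit, was at 2.79, 3.11 and 3.01 FPKM in Scramble, at 3.2, 3.47 and 3.64 FPKM under Si-FIBP#1 and at 4.0, 3.63 and 3.42 FPKM under Si-FIBP#2. Its samples were also all higher after depletion, but 0.16 and 0.24 on the log2 scale did not pass (95% intervals -0.051 to 0.37 and 0.027 to 0.45, limma, adjusted p = 0.189 and 0.061). The ratio of ERCC1 to ERCC4 was 56.1 ± 2.77 (SD, n = 3) in Scramble, 58.5 ± 3.54 and 55.3 ± 7.05, and its ranges overlapped. Transcripts assembled by the authors provided 82.8% of ERCC4 in Scramble, whereas the annotated coding transcript ENST00000311895 was listed at 0 in Scramble replicate 1 and Si-FIBP#2 replicate 1. XPA, which brings ERCC4-ERCC1 to damaged DNA, was at 13.34 to 14.28 FPKM in Scramble and at 15.75 to 19.37 FPKM after depletion, and rose with each siRNA (log2 fold changes 0.24 and 0.32, limma, adjusted p = 0.0316 and 0.0077).
The rise of ERCC1 was not shared by all of its transcripts. ENST00000013807 (1278 nt, protein coding) was at 50.59, 55.9 and 49.42 FPKM in Scramble, at 68.97, 74.05 and 73.57 FPKM under Si-FIBP#1 and at 69.7, 84.23 and 79.52 FPKM under Si-FIBP#2 (log2 fold changes 0.47 and 0.57, limma, adjusted p = 0.00435 and 0.00175). ENST00000340192 (949 nt) rose with Si-FIBP#1, from 25.92 to 33.82 FPKM in Scramble to 41.57 to 42.37 FPKM (log2 fold change 0.49, limma, adjusted p = 0.0088), and was at 30.28 to 35.69 FPKM under Si-FIBP#2. In contrast, the longest, ENST00000300853 (3379 nt, protein coding), fell from 33.6, 31.55 and 33.92 FPKM to 21.32, 21.47 and 21.04 FPKM under Si-FIBP#1 and to 25.06, 26.21 and 25.08 FPKM under Si-FIBP#2 (log2 fold changes -0.61 and -0.36, limma, adjusted p = 0.000216 and 0.00318). Its share of ERCC1 went from 19.9% to 10.6% and 12.6%. In GENCODE release 29, 41.6% of its bases lie over exons of CD3EAP, a gene on the opposite strand, which itself went from a mean of 21.5 FPKM in Scramble to 16.9 and 15.5 FPKM. Whether reads were assigned by strand is not given in the sources used here, so reads of the 2 genes cannot be told apart there.

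Over the transcripts of the 8 genes, 33 of 104 were tested. At the FDR, Si-FIBP#1 gave 10 lower and 4 higher, against 10.0% and 10.7% of all transcripts tested. Si-FIBP#2 gave 7 lower and 1 higher, against 8.46% and 10.6%. The lower ones with Si-FIBP#1 were 4 of EME1, 3 of GEN1, 2 of MUS81 and 1 of ERCC1, while the 4 higher ones all belonged to ERCC1. Some transcripts counted as lower passed the filter only through Scramble. Among these were EME1 ENST00000510007, MUS81 ENST00000533519, FAN1 ENST00000656435, and ENST00000381254, ENST00000528873 and the assembled transcript of GEN1. The filter thus favours lower calls among low transcripts of this kind. Between the siRNAs none of the 8 genes passed the FDR (limma, 15.4% of all genes). GEN1 came nearest, with an unadjusted p of 0.0351 (limma). Of the transcripts, 2 of ERCC1 passed (2.46% of all transcripts), ENST00000589165 with a call lost in 13 of 16 alternatives and ENST00000592905 with a call lost in 6 of 16. The latter, also counted above as higher with Si-FIBP#1, met the filter only through that group.

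**Figure D3:**
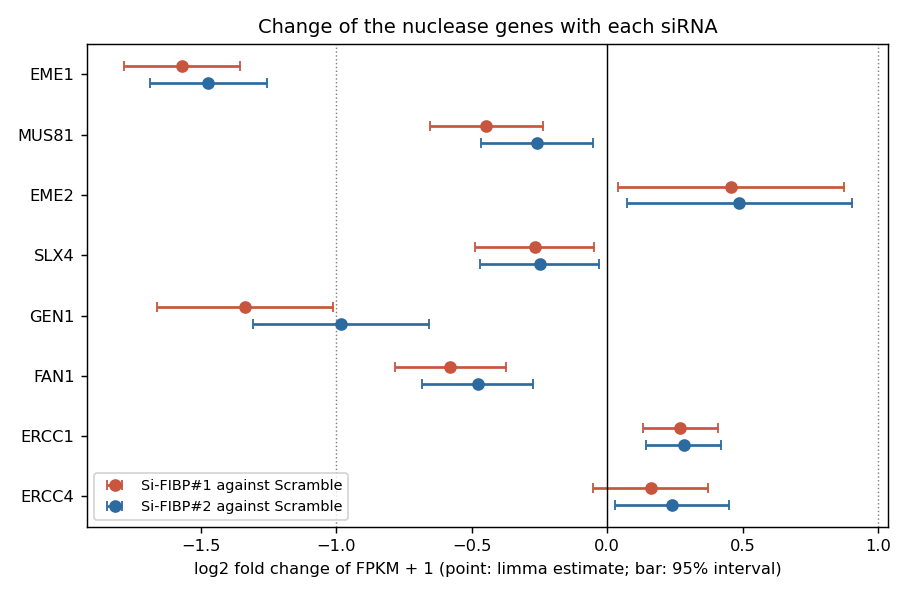
Log2 fold changes on the log2(FPKM + 1) scale (horizontal axis) of the 8 nuclease genes with Si-FIBP#1 and Si-FIBP#2 against Scramble; points are limma estimates, bars 95% intervals, and dotted lines mark a 2-fold change. EME1 lies beyond 2-fold with both siRNAs, GEN1 at -1.34 and -0.98, and EME2, ERCC1 and ERCC4 lie above 0.

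Other genes share exonic bases with these nuclease genes on the opposite strand. EME1 (chr17:50373220-50381483, plus strand, GRCh38) shares 16.4% of its exonic bases with LRRC59, which fell from a mean of 147 FPKM to 99.1 and 123 FPKM. EME2 shares 2073 exonic bases with SPSB3, while MUS81 shares 13.9% of its own with CFL1, ERCC1 28.6% with CD3EAP, ERCC4 25.7% with the antisense gene AC010401.1 (at most 0.027 FPKM on average), FAN1 24.3% with MTMR10, SLX4 3.83% and GEN1 0.905%. The part of these overlaps in the values above was not tested. ENST00000514211, a retained-intron transcript of EME1 that lies apart from LRRC59, changed by -0.87 and -0.96 on the log2 scale (limma, adjusted p = 0.0183 and 0.013). It is short (462 nt) and was at 0.55 to 1.31 FPKM after depletion, which rests on few fragments. Another EME1 transcript apart from LRRC59 was too low to be tested, and the part of LRRC59 in the fall of EME1 was not tested.

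Among 18 other DNA nucleases, 12 passed the FDR as lower and 0 as higher after the first siRNA, against 10 and 2 after the second (limma, background shares as above). Their median log2 fold changes were -0.54 and -0.51. The genes called with both siRNAs together were FEN1, which trims flaps of Okazaki fragments, DCLRE1B, an exonuclease of telomeres and crosslinks, and SLX1B. FEN1 went from 54.2 ± 1.29 FPKM (SD, n = 3) to 23.7 ± 1.58 and 27.2 ± 0.781 FPKM, and DCLRE1B from 8.79 ± 0.492 to 4.05 ± 0.35 and 3.14 ± 0.197 FPKM. Among 25 partners and regulators, 18 passed as lower and 4 as higher after the first siRNA, against 19.9% and 27.8% of all genes. After the second, 14 and 3 did, against 17.7% and 31.1%. Called lower were 10 and 9, against 3.11% and 2.13% of all genes. PLK1, CDK1 and CCNB1 belong both to this list and to the G2/M markers below. The largest falls with both siRNAs together were those of BLM, the helicase that dissolves double Holliday junctions (log2 fold changes -1.73 and -1.98), FANCI, a subunit of the crosslink repair complex ID2 (-1.95 and -1.39), the CDK1 inhibitor kinase PKMYT1 (-1.86 and -1.29), and CDK1 (-1.75 and -1.35), with limma adjusted p of 1.71e-05 or less for each. The study links the transcription factor STAT3 to EME1 through its activity. It reports that FIBP silencing lowered STAT3 phosphorylation at a serine, reporter activity and promoter binding, with total STAT3 protein unaltered. It also reports that FIBP binds STAT3, and that extra STAT3 restored part of the EME1 mRNA and protein in FIBP-deficient cells. The mRNA level of STAT3, a different measure, was higher after depletion. It was at 18.38, 18.61 and 16.66 FPKM in Scramble, at 31.8, 31.49 and 30.65 FPKM under Si-FIBP#1 and at 29.16, 29.22 and 29.75 FPKM under Si-FIBP#2 (log2 fold changes 0.78 and 0.69, limma, adjusted p = 6.5e-06 and 1.56e-05).

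Markers of the cell cycle moved with EME1 and GEN1. Of 20 S phase markers, 19 and 18 were called lower by the 2 siRNAs, against 3.11% and 2.13% of all genes, with median log2 fold changes of -1.44 and -1.17 beside 0.073 and 0.11 for all genes. Their summed level was 1726 to 1775 FPKM in Scramble, 588 to 614 FPKM under Si-FIBP#1 and 668 to 734 FPKM under Si-FIBP#2, and none of the markers was at 0. The largest falls with both siRNAs together were those of RRM2 (-2.12 and -1.83) and TYMS (-2.20 and -1.53), enzymes of nucleotide synthesis, of UHRF1 (-1.88 and -1.84), which maintains DNA methylation, and of CDC45 (-1.86 and -1.53), a part of the replicative helicase. Of 20 G2/M markers, 19 and 12 were called lower against the same shares, with medians of -1.48 and -1.09, and their summed level was 2063 to 2143, 672 to 730 and 850 to 1004 FPKM. CDC20 (-1.88 and -1.52), CDK1, CCNB1 (-1.73 and -1.35) and UBE2C (-1.73 and -1.30), which drive entry into and exit from mitosis, had the largest falls with both siRNAs together. In bulk RNA, fewer cells in a phase of the cycle and less mRNA per cell cannot be told apart. The part of the cell cycle markers in the falls of EME1, GEN1, FAN1, MUS81 and SLX4 was not tested.

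The genes whose values over the 9 samples were most like those of a nuclease gene were found from the root mean square (RMS) difference of log2(FPKM + 1), each set to its Scramble mean. Of the 721 genes called with the siRNAs together, 704 remained as candidates for EME1 after 15 assembled loci without a gene name and 2 of the 8 genes were set aside. GTSE1 was nearest to EME1 (RMS difference 0.052), with log2 fold changes of -1.56 and -1.49, followed by MCM5 (0.061), E2F2 (0.109), CKS1B (0.111) and CLSPN (0.114). For MUS81 and EME2, 14733 of the 14985 genes tested remained in the same way. Nearest to MUS81 were UVSSA (0.051), ZNF141, EWSR1, PROSER1 and JADE1 (0.077), and nearest to EME2 were PAN2 (0.098), PGS1, SDR39U1, ING4 and CLCN7 (0.124). The measure is a description over samples that share their groups, and has no test.

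No direction of the 8 genes turned under the 3 scalings (as deposited, TPM and median ratio). Dividing each sample by its median ratio to the others shifted the log2 median over the tested genes under Si-FIBP#2 from 0.11 to 0.0063, and then 3662 genes were lower and 3340 higher at the FDR, against 2656 and 4653 as deposited. For Si-FIBP#1 the counts became 3590 and 3366, against 2976 and 4170, and for both siRNAs together 3954 and 3748, against 3046 and 4892. The shares of all genes given above as lower and higher at the FDR therefore depend on the scaling. The smallest log2 values of ERCC1 over all alternatives were 0.19 and 0.16 for the 2 siRNAs, and ERCC1 passed in each (limma, adjusted p at most 0.0241 and 0.0483).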

How the data were processed

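RNA-seq was performed on poly(A)-selected RNA of H1299 cells (3 samples each of Scramble, Si-FIBP#1 and Si-FIBP#2), with paired-end sequencing. The authors deposited 1 table of transcript values per sample, which behave as FPKM, a unit inferred from the values. HISAT2 and StringTie are named in the submitters' processing notes, without versions. The genome build, the annotation release and the use of strand are not given in the sources used here. Assembled loci without a gene name took 0.231% to 0.293% of FPKM and were kept in the tests under their own identifiers (244 of 14985 genes tested).

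Transcript FPKM were summed per gene. Genes, and in a separate fit transcripts, reaching 1 FPKM in 3 or more of the 9 samples were tested with limma 3.58.1 (R 4.3.3, empirical Bayes with a trend) on log2(FPKM + 1), in 1 fit over 9 samples, with Benjamini-Hochberg adjustment over all features tested. Fold changes are on that scale, which understates changes of low genes. Genes were called at an FDR below 0.05 and a change over 2-fold. The files contain no counts, so no count test was run, and precision is given by the spread between samples. Depth was estimated from 8028 single-transcript genes 800 to 2000 nt long, with 250 bases taken off the length. Low values in units of 1 fragment had a mean cosine of 0.775 to 0.818 (1 if all were whole numbers), so the estimate is approximate. Positions, transcript types and overlaps were read from GENCODE release 29 (GRCh38, Ensembl release 94) through Ensembl identifiers, and promoters from RefSeq, where all 8 genes matched. Transcript lengths in the files can differ from that release. The fits were tested on simulated data.

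The genes named were FIBP, the 8 nuclease genes, up to 4 called genes with the largest change per list, SLX1A, SLX1B, SLX4IP, XPA, STAT3 and the 5 nearest genes to EME1, MUS81 and EME2. Transcripts could be named from a mean of 0.5 FPKM over the 9 samples or 10% of their gene in any group, and those given in the text were chosen among them after their values were seen. Overlapping neighbours and cell type markers are named besides. The genes and lists were chosen with earlier results of these data known. Alternatives were a pseudocount of 0.1, filters of 5 FPKM or none, TPM and median ratio scaling, only the groups compared, no assembled transcripts, no fold change threshold, a replicate block and leaving out each sample. Other steps used Python 3.11.15, pandas 2.3.3, numpy 2.4.6 and matplotlib 3.10.9. A further gene used to check the cell line is not reported here.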

Additional observations from a re-analysis of the deposited data

Results flagged for a closer look

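By a test of the difference itself, 2 of the 33 transcripts tested, both of ERCC1, differed between the siRNAs at the FDR. Over all transcripts tested the share was 2.46%. ENST00000592905 (882 nt, with a retained intron) was at 2.06, 0 and 2.39 FPKM in Scramble, at 8.01, 5.69 and 7.46 FPKM under Si-FIBP#1 and at 0, 0 and 0.73 FPKM under Si-FIBP#2. It was thus high with Si-FIBP#1 and listed at 0 in 2 of 3 samples with Si-FIBP#2, a log2 difference of Si-FIBP#2 to Si-FIBP#1 of -2.73 (limma, adjusted p = 0.02). It met the filter of 1 FPKM in 3 samples only through Si-FIBP#1, where it was high, so this test is no separate support for a difference. With Si-FIBP#2 near 0 the size of this difference is uncertain, and it reached -5.13 over the alternatives. The call was lost in 6 of 16 alternatives, when any Si-FIBP#1 sample or Si-FIBP#2 replicate 1 was left out, with a pseudocount of 0.1 and without a filter (limma, adjusted p = 0.0623 to 0.0865). ENST00000589165 (1453 nt, protein coding) was at 23.1, 24.19 and 20.31 FPKM in Scramble, at 15.03, 17.33 and 19.6 FPKM under Si-FIBP#1 and at 24.91, 34.93 and 26.03 FPKM under Si-FIBP#2. It was below Scramble with the former and above it with the latter, and differed by 0.69 on the log2 scale (limma, adjusted p = 0.0467). The difference stayed above 0, but the call was lost in 13 of 16 alternatives, among them leaving out any of the 9 samples (limma, adjusted p = 0.0514 to 0.139). Neither siRNA passed against Scramble (limma, adjusted p = 0.108 and 0.158). The sum over ERCC1 did not pass between the siRNAs, with a difference of 0.011 (95% interval -0.13 to 0.15).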

How the results depend on the processing

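No log2 fold change of the 8 genes turned its direction under any alternative run. EME1, GEN1, FAN1 and ERCC1 stayed below an FDR of 0.05 with each siRNA in 18 of 18 alternatives, and ERCC4 in 0 of 15. MUS81 with Si-FIBP#2 missed it in 9 of 18, and SLX4 with Si-FIBP#1 in 11 of 17. SLX4 with Si-FIBP#2 passed in 2 of 17, and EME2 passed in 1 of 16 with each siRNA. For both siRNAs together, EME2 missed it in 7 of 16 and SLX4 in 7 of 17. The causes were not tested. Counts of called features moved as follows, in the order Si-FIBP#1, Si-FIBP#2 and both together, from 2, 1 and 2 of the 8 genes, 5, 2 and 2 of their transcripts and 2, 1 and 3 other nucleases. Without a fold change threshold, 6, 5 and 7 of the 8 genes passed. A pseudocount of 0.1 gave 9, 6 and 8 called transcripts of the 8 genes, 4 and 3 called other nucleases with each siRNA and 2 called genes of the 8 with Si-FIBP#2. Over all features this setting raised the calls likewise, from 2547, 2085 and 2103 to 4027, 3339 and 4001 of 47662 transcripts, and from 848, 757 and 721 to 1498, 1411 and 1418 of 14985 genes. With Si-FIBP#2 the count of called genes of the 8 was also 2 under TPM or median ratio scaling, because GEN1 then exceeded 2-fold. Median ratio scaling gave 4 called other nucleases with Si-FIBP#2, and TPM scaling 4 called transcripts with both together. A filter of 5 FPKM left 2, 1 and 1 called transcripts, and no filter 3 transcripts and 1 other nuclease with Si-FIBP#1. With protein-coding transcripts of GENCODE release 29 only, an alternative chosen after seeing the data, 1 gene of the 8 and 1 other nuclease were called with both together. Between the siRNAs, a pseudocount of 0.1 or no filter left 0 called transcripts.

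With each sample left out in turn, called transcripts of the 8 genes ranged from 3 to 5, from 2 to 3 and from 1 to 2, and between the siRNAs from 0 to 1. The first of these was 3 without Scramble replicate 1 or Si-FIBP#1 replicate 2 or 3, and the third was 1 without any Scramble sample. Called genes of the 8 with Si-FIBP#2 ranged from 1 to 2, and called other nucleases from 1 to 3, from 1 to 2, from 2 to 3 and, between the siRNAs, from 0 to 1. With Si-FIBP#1 1 other nuclease was called without Scramble replicate 2 or Si-FIBP#1 replicate 1 or 3, and with Si-FIBP#2 2 were called without Scramble replicate 1 or Si-FIBP#2 replicate 1.

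Same-numbered samples were not paired in the main fit. Of their 9 pairs, 1 had a correlation of deviations over 0.1 (-0.057 to 0.10). Of 18 pairs with unlike numbers, 0 did (-0.14 to 0.049). Some same-numbered pairs lay above that range, so these values do not settle whether the samples were paired. With the replicate block, EME1 had the same log2 fold changes of -1.57 and -1.47, and SLX4 with Si-FIBP#1 no longer passed (limma, adjusted p = 0.0678), nor did ERCC1 ENST00000589165 between the siRNAs (limma, adjusted p = 0.0689). Values below about 1 FPKM rest on few fragments in short transcripts, which limits what the short minor transcripts show.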
